A study of Mus musculus with 11 samples.

Results

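A set of 10 genes known for their expression in the cerebellum were followed through whole-brain expression arrays of mice null for the β4 nicotinic receptor subunit and of their wild-type littermates. The nicotinic receptor is an ion channel that acetylcholine opens. The set was defined by gene name and holds every probe set annotated to Pcp2, Car8, Calb1, Pvalb, Zic1, Zic2, En2, Neurod1, Cbln1 or Gdf10. This gave 13 probe sets of 10 genes, among 12488 probe sets on the array, of which 10855 are annotated to 1 gene and together name 8252 genes. Pcp2, Pvalb and Zic2 have 2 probe sets each, none of the 13 is shared with another named gene, and all 13 passed the filter on low signal. The rule uses gene names and no threshold on a measured value.

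The cerebellum coordinates movement, and its cortex is built from few cell types. Purkinje cells are its only output neurons, receive excitation from the parallel fibres of granule cells, and carry large amounts of calcium-binding proteins. Granule cells are the most numerous neurons of the brain and keep expressing transcription factors of the dorsal hindbrain into adulthood. Bergmann glia are astrocytes that wrap Purkinje dendrites. None of the 10 genes is exclusive to the cerebellum: calbindin and parvalbumin, for example, also mark inhibitory interneurons of the forebrain.

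The mice were of strain C57BL/6J and untreated, and 1 array was made from the whole brain of each. The control group held 6 wild-type littermates, 4 male and 2 female, aged 6 to 9 weeks. The mutant group held 5 null mice (beta4-/-), 2 male and 3 female, aged 7 to 9 weeks. How the allele was made was not described in the sources used here. Wild-type 4, 5 and 6 carry LT mouse numbers, which no null mouse does, and all other mice carry B4 numbers. What these letters mean is not stated. The LT mice were all 6 weeks old and the B4 mice 7 to 9 weeks, so the letters and this age step cannot be told apart. The null males were 9 weeks old, as was 1 of the wild-type males. The array has no probe set annotated to Chrnb4, the gene of the β4 subunit, so the genotype labels could not be checked against it. In whole brain, fewer cells of a type and less RNA per cell cannot be told apart.

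The 2 male null arrays stood apart from the other 9. Their median signals were 58.3 and 56.3, against 43.6 to 49.75 elsewhere, although every array had been scaled to a trimmed mean of 150.1. Their ratios of 3′ to 5′ signal of Gapdh, a control that reports how complete the labelled RNA is, were 0.859 and 0.798, against 2.19 to 5.92 elsewhere. Relative to the 3′ signal, the 5′ signal of Gapdh was thus higher on these 2 arrays than on the others. They lay at 47.2 and 49.2 on the first principal component of all tested probe sets (39.7% of the variance), and the others lay between -16.3 and -2.03. As a check of the tissue, summed signals in wild-type brains were 10216 to 11942 for 10 pan-neuronal genes, 5575 to 8599 for 8 oligodendrocyte genes and 10321 to 10942 for 19 Purkinje cell genes, and no gene of these lists was at the floor on every array. Each result that rests on the male null arrays is therefore given with and without them, and the part of the RNA measure in it was not tested beyond the values given.

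The promoters of Pcp2, Pvalb and Zic1 are shown because these genes supply 3 of the 4 probe sets that were lower in male null brains. Each run holds the 250 bases before the outermost annotated start, 5′ to 3′ on the gene's strand, from RefSeq (build GRCm38.p6). Capitals mark matches to the motifs searched. The Pcp2 run lies at chr8:3625548-3625797, the Pvalb run at chr15:78206401-78206650 and the Zic1 run at chr9:91365769-91366018, all on the minus strand.
Pcp2: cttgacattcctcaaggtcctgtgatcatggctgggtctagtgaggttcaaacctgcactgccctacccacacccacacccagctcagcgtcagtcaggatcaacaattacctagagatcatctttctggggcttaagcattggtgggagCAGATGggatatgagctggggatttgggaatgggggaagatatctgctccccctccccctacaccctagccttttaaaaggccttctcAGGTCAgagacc
Pvalb: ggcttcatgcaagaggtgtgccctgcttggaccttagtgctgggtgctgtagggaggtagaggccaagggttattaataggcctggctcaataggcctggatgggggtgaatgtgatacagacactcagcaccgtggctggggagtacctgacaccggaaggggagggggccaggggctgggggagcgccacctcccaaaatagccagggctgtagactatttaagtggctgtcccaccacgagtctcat
Zic1: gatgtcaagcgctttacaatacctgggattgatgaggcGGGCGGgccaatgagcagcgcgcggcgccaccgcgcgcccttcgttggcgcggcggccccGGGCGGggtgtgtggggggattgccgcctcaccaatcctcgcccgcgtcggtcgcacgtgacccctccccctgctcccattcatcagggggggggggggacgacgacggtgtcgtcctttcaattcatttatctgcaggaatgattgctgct
The motifs were searched on both strands. They were AGGTCA (a nuclear receptor site, found in 14.0% of 32851 promoter windows of the same length), CAGATG (an E-box, 14.4%), CAGCTG (a palindromic E-box, 13%), TATAAA (12.4%), GGGCGG (a GC box, 32.7%) and TAATTA (a homeodomain site, 4.84%). No motif overlapped another in the runs shown. The Pcp2 window held AGGTCA from 12 bases before the start and CAGATG from 100 bases before it. The Zic1 window held GGGCGG from 212 and from 152 bases before the start, and the Pvalb window held no match. A match describes letters only. Neurod1 and Gdf10 were also in the promoter table, and Car8, Calb1, Zic2, En2 and Cbln1 were not.

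Whether loss of the β4 subunit changes these genes was asked by comparing null with wild-type brains, with sex as a covariate. None of the 13 probe sets passed an adjusted p of 0.05 (limma, Benjamini-Hochberg over all 7453 tested probe sets), where 0.0268% of all tested probe sets did. At an unadjusted p under 0.05 there were 3 of 13, all lower in null brains, against 23.1% of all tested probe sets in either direction and 9.69% lower. The log2 difference was below 0 for 10 of 13, against 46% of all tested. Its median over the 13 was -0.21, beside 0.03 over all tested probe sets, and it was -0.14 when each gene was taken at its brightest probe set. Null and wild-type signals overlapped for all 13, and 0.496% of all tested probe sets had every null brain below every wild-type one. All values below are MAS5 signals on a linear scale unless given as log2 differences, and they are not compared between probe sets.

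Among the Purkinje cell genes, Pcp2 encodes a GoLoco protein that binds Gi and Go proteins and is a classical marker of these cells. Probe set 102376_r_at gave 462.1, 617.7, 637.5 and 522.7 in wild-type males, 615.4 and 415.8 in wild-type females, 527.8, 504.6 and 443.6 in null females, and 321.9 and 366.5 in null males. The 2 male null brains were the lowest of the 11, and the female groups overlapped. Wild-type brains averaged 545 ± 92.6 (SD, n = 6) and null brains averaged 433 ± 88.0 (SD, n = 5), a log2 difference of -0.39 (SE 0.16, 95% interval -0.74 to -0.03, limma adjusted p = 0.187). The other Pcp2 probe set, 162452_at, gave 88.5, 90.2, 68.9 and 72.1 in wild-type males, 88.6 and 82.7 in wild-type females, 76, 105 and 73.6 in null females, and 56 and 50.2 in null males. Its null males were also below all other brains, and its genotype difference was -0.32 (SE 0.18, limma adjusted p = 0.287).

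Pvalb encodes parvalbumin, a fast calcium buffer of Purkinje cells and of interneurons in cerebellum and forebrain. The probe set 96719_i_at gave 2259, 2165, 1932 and 1838 in wild-type males, 2106 and 1404 in wild-type females, 1733, 2111 and 1953 in null females, and 1909 and 1646 in null males. Every arm overlapped the others, and the genotype difference was -0.03 (SE 0.14, 95% interval -0.32 to 0.27). The probe set 96720_f_at, whose suffix marks probes that can also bind related transcripts, gave 219.8, 177.3, 169.9 and 228.8 in wild-type males, 257.6 and 145.9 in wild-type females, 169.4, 210.4 and 167.7 in null females, and 101.5 and 125.1 in null males. Here the null males were the lowest of all brains, and the genotype difference was -0.47 (SE 0.19, limma adjusted p = 0.179). The 2 Pvalb probe sets thus differ in where the male null brains lie.

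Car8 encodes a protein related to carbonic anhydrases that lacks enzyme activity and binds the inositol trisphosphate receptor of Purkinje cells. Its signal ran from 644.3 over a median of 746 to 988.8 in wild-type brains, and was 573.4, 655.1, 968.3, 1156 and 685.3 in null 1 to 5. The highest and the lowest brain of the 11 were both null, and the genotype difference was -0.08 (SE 0.18, 95% interval -0.45 to 0.30). Calb1 encodes calbindin, another calcium buffer. It was the steadiest member, with 606.4 to 709.7 (median 683) in wild-type and 693.3, 606.8, 801.9, 669.9 and 671.7 in null 1 to 5. Its genotype difference over both sexes was 0.03 (SE 0.11, 95% interval -0.20 to 0.27). This interval does not bound a change in males or females alone.

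The granule cell genes include 4 transcription factors. Zic1, a zinc finger factor needed for cerebellar growth, gave 2048, 1800, 1295 and 1735 in wild-type males, 1894 and 1450 in wild-type females, 1532, 1718 and 1670 in null females, and 1050 and 1143 in null males. The null males were again the lowest of the 11, and the null females lay inside the wild-type range. That overlap came from the wild-type LT mice, at 1295 to 1735. All 5 null brains, at most 1718, lay below the 3 wild-type B4 brains, at 1800 to 2048. This split of Zic1 was picked from the values. The share of all tested probe sets with such a split was not counted. Among B4 mice 0 of 13 member probe sets passed for genotype, where 26 of all 7453 tested did. Across genotypes the difference was -0.34 (SE 0.16, limma adjusted p = 0.212). En2, a homeodomain factor that patterns the midbrain and hindbrain, gave 357.4, 304.9, 332 and 461.2 in wild-type males, 335 and 293.3 in wild-type females, 354.9, 366.8 and 329.5 in null females, and 219.8 and 219.5 in null males. The null males were the lowest and nearly equal, and the null females overlapped the wild-type brains. En2 differed by -0.30 between genotypes (SE 0.17, limma adjusted p = 0.311).

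Zic2, a relative of Zic1 that acts in forebrain and cerebellar development, is measured by a pair of probe sets. Probe set 98844_at lay between 19.8 and 61 (median 45.2) in wild-type and was 50.6, 31.1, 71.5, 47.2 and 33.6 in null 1 to 5. Probe set 98843_at lay between 21.2 and 73 (median 43.7) in wild-type and was 36.7, 24.7, 35.4, 39.7 and 43.4 in null 1 to 5. Both overlapped between genotypes, with differences of 0.15 (SE 0.32) and -0.12 (SE 0.30). Neurod1, a basic helix-loop-helix factor of granule cell differentiation, lay between 234.8 and 533.5 (median 358.2) in wild-type and was 193.2, 322.1, 333, 304.5 and 275 in null 1 to 5. Its lowest brain was null 1, its difference was -0.41 (SE 0.20) and the limma adjusted p was 0.240.

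The secreted members gave the following. Cbln1, which granule cells release to hold parallel fibre synapses onto Purkinje cells, lay between 542.7 and 798 (median 567.8) in wild-type and was 458.6, 555.4, 464.7, 644.2 and 613.2 in null 1 to 5. Null 1 and null 3 were below all wild-type brains and the other 3 null brains lay among them, with a difference of -0.21 (SE 0.14, limma adjusted p = 0.372). Gdf10, a ligand of the transforming growth factor β family and the Bergmann glia member, lay between 40.5 and 107.2 (median 75.55) in wild-type and was 69.5, 85.6, 103.7, 73.4 and 93.1 in null 1 to 5. All null values lay within the wild-type range, with a difference of 0.12 (SE 0.23, 95% interval -0.38 to 0.62).

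**Figure D1:**
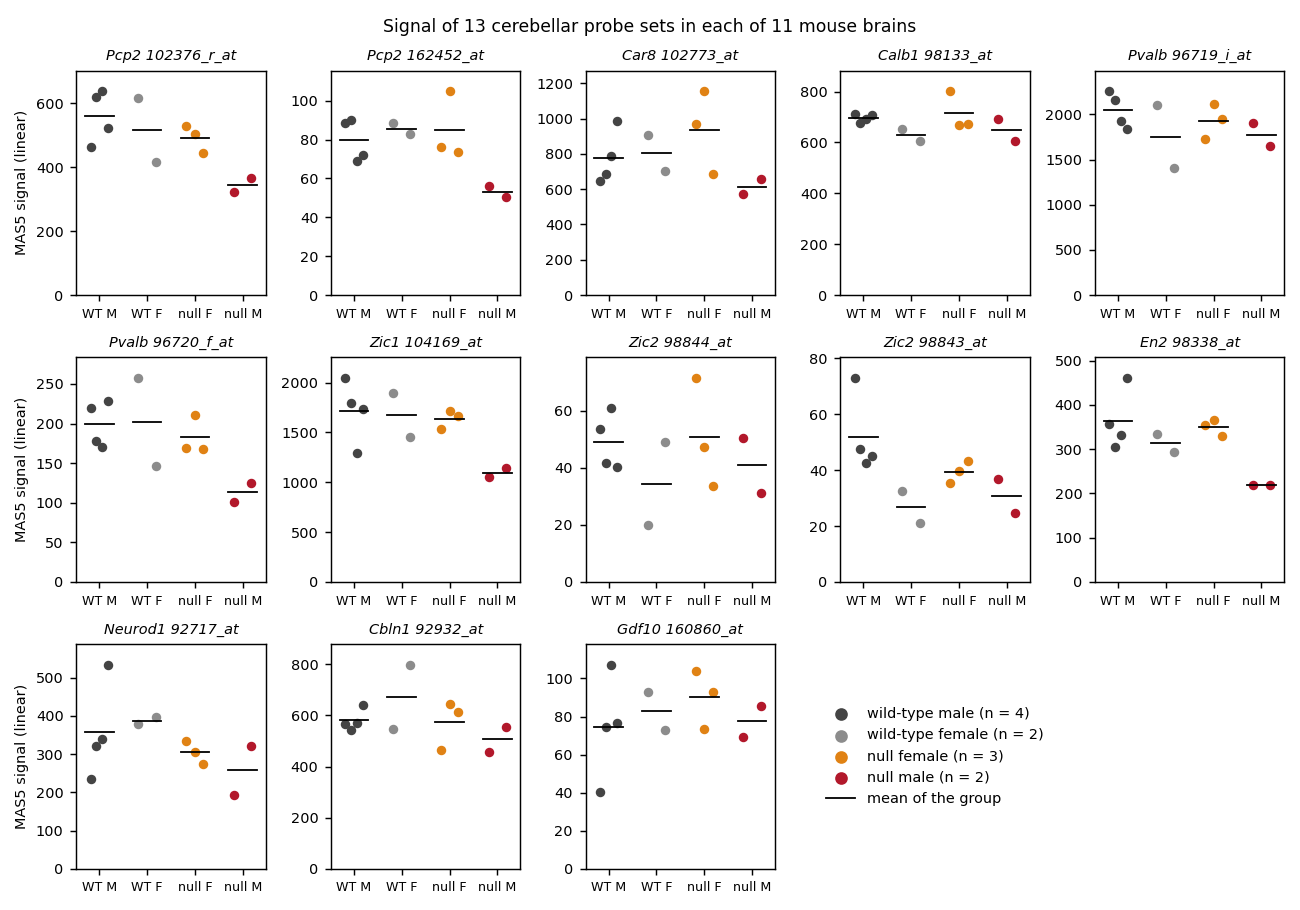
MAS5 signal on a linear axis from 0 of the 13 probe sets, 1 panel each, with 1 point per brain in 4 groups of sex and genotype and a line at each group's mean. In the panels of En2, Zic1, both Pcp2 probe sets and Pvalb 96720_f_at the 2 male null brains lie below all 9 others, and the null females lie within the wild-type range except for 1 at 105 in the panel of Pcp2 162452_at.

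The sexes were then compared for the genotype difference in a model with the 4 groups of sex and genotype. In males, 4 of 13 member probe sets passed the threshold, all lower in null brains, where 32.6% of all tested probe sets passed, 17.8% higher and 14.8% lower. They were En2 (log2 difference -0.71, SE 0.17, limma adjusted p = 0.00574), Pcp2 102376_r_at (-0.69, SE 0.18, limma adjusted p = 0.0110), Zic1 (-0.63, SE 0.17, limma adjusted p = 0.0130) and Pvalb 96720_f_at (-0.81, SE 0.23, limma adjusted p = 0.0163). These are falls of 1.64-fold, 1.62-fold, 1.55-fold and 1.75-fold. The share of members called in either direction was thus near the background, and the share called lower was above it. The log2 difference was below 0 for 12 of 13, against 46.9% of all tested, and its median was -0.45, against 0.05 over all tested. With each of the 10 genes at its brightest probe set, 3 passed, 9 were below 0 and the median was -0.30. Pvalb then dropped out, because its brighter probe set 96719_i_at did not pass (-0.20, limma adjusted p = 0.369). Both male null brains were below every wild-type male for 6 of 13, where 22.9% of all tested probe sets were, and below all 9 other brains for 5 of 13, where 16.5% were.

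The other 9 member probe sets did not pass in males. Pcp2 162452_at (-0.58, SE 0.22, limma adjusted p = 0.0557) and Zic2 98843_at (-0.75, SE 0.33, limma adjusted p = 0.0975) came nearest. Neurod1 gave -0.45, Car8 -0.32, Zic2 98844_at -0.28, Pvalb 96719_i_at -0.20, Cbln1 -0.20 and Calb1 -0.10, and Gdf10 gave 0.13. Intervals were wide with 2 null males: for Car8 the 95% interval ran from -0.79 to 0.14, and for Calb1 from -0.37 to 0.17.

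The calls in males rest on both male null mice. Without null 1, only En2 passed (limma adjusted p = 0.0489, with 18% of all tested probe sets past the threshold), and Pcp2 102376_r_at, Zic1 and Pvalb 96720_f_at gave adjusted p of 0.112, 0.108 and 0.155. Without null 2, Pcp2 102376_r_at and Pvalb 96720_f_at passed (limma adjusted p = 0.0469 and 0.0493, with 16.3% of all tested), and En2 and Zic1 gave 0.0518 and 0.0595. The size of the En2 difference was -0.71 in each of these fits. Restricted to mice with B4 numbers, 2 null males stood against 2 wild-type males and 5 of 13 passed: the same 4 and Pcp2 162452_at (-0.75, limma adjusted p = 0.0453), where 30.3% of all tested probe sets did. After quantile normalization 5 of 13 passed, where 2545 of all 7453 tested probe sets did. Zic1 fell short of the threshold (-0.42, limma adjusted p = 0.0553). Pcp2 162452_at (-0.86, limma adjusted p = 0.00893) and Zic2 98843_at (-1.03, limma adjusted p = 0.0254) passed beside En2, Pcp2 102376_r_at and Pvalb 96720_f_at. Of the calls over all tested probe sets in males, 54.7% were higher in null as deposited, 44.0% after quantile normalization and 27.5% after centring each array on its median.

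In females no member passed, and 0% of all tested probe sets did. At an unadjusted p under 0.05 there were 0 members, against 4.13% of all tested probe sets. En2 gave 0.16 (SE 0.17), Zic1 -0.02, the Pcp2 probe sets -0.04 and -0.03, Pvalb 0.16 and -0.10, Car8 0.20, Calb1 0.18, Neurod1 -0.35, Cbln1 -0.22, Gdf10 0.12 and Zic2 0.64 and 0.59. Of the 13, 6 were below 0 against 46.9% of all tested. The 3 null females lay above both wild-type females for Calb1 and Zic2 98843_at and below both for Neurod1, where 11.9% and 8.76% of all tested probe sets did the same. The genotype difference over all mice except the null males equals the difference in females for each member, again with 0 called (3.54% of all tested at an unadjusted p under 0.05).

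**Figure D2:**
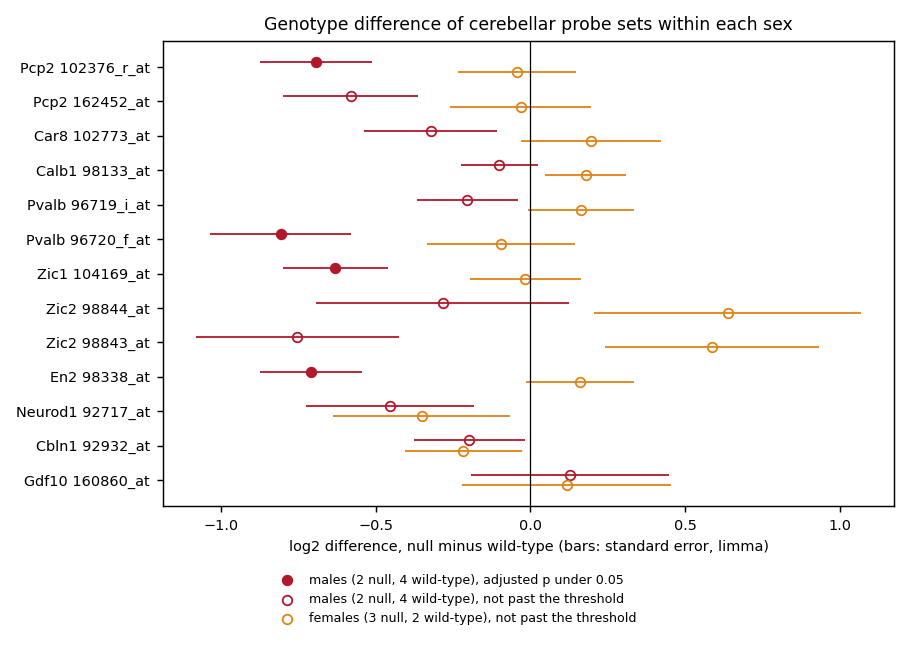
Log2 difference of null minus wild-type brains for each member probe set, in males and in females, with bars of 1 standard error from limma and filled symbols for an adjusted p under 0.05. The filled symbols are En2, Zic1, Pcp2 102376_r_at and Pvalb 96720_f_at in males, between -0.81 and -0.63, and the female values of these 4 lie between -0.10 and 0.16.

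The difference between the sexes was tested directly, by subtracting the null minus wild-type difference of males from that of females. En2 passed, with 0.87 (SE 0.24, 95% interval 0.35 to 1.39, limma adjusted p = 0.0277), where 15.9% of all tested probe sets passed and 7.25% were higher. Behind it stood a fall of En2 in null males and no detected change in null females. Zic2 98843_at gave 1.34 (limma adjusted p = 0.0743), Zic1 0.61 (0.110), Pcp2 102376_r_at 0.65 (0.112) and Pvalb 96720_f_at 0.71 (0.163), so the sexes were not shown to differ for these. Of the 13, 11 were above 0, against 49.1% of all tested. The En2 call was lost without null 1 (adjusted p = 0.0863), null 2 (0.0947), null 3 (0.0568), null 4 (0.0627) or wild-type 5 (0.119), and among B4 mice (0.65, limma adjusted p = 0.110). Without wild-type 3, which left 1 wild-type female, Pcp2 102376_r_at gave 0.93 and Pvalb 96720_f_at 1.12. Without wild-type 4, Zic1 passed beside En2 (0.74, limma adjusted p = 0.0294), where 1158 of all 7453 tested probe sets passed. Zic2 98843_at passed after quantile normalization (1.50, limma adjusted p = 0.0429) and after median centring (1.56, limma adjusted p = 0.0384).

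For the 4 member probe sets that fell in males, the 2 lowest brains were the male null ones, with Gapdh ratios of 0.859 and 0.798. Whether their signals follow the ratio among the other 9 brains was not tested. With the log2 of the inverse, 5′ over 3′, as a covariate in the genotype comparison (the sign of this covariate does not alter the genotype difference), En2 gave 0.16, Pcp2 102376_r_at 0.03, Zic1 -0.07 and Pvalb 96720_f_at -0.15, with 0 of 13 called, as for 0% of all tested probe sets (4.66% at an unadjusted p under 0.05). The ratio and the male null group cannot be told apart in these arrays. Leaving out wild-type 5, a female, had the opposite effect: Pcp2 102376_r_at (-0.56, limma adjusted p = 0.0323) and Pvalb 96720_f_at (-0.70, limma adjusted p = 0.0260) then passed in the genotype comparison, where 11.8% of all tested probe sets did.

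**Figure D3:**
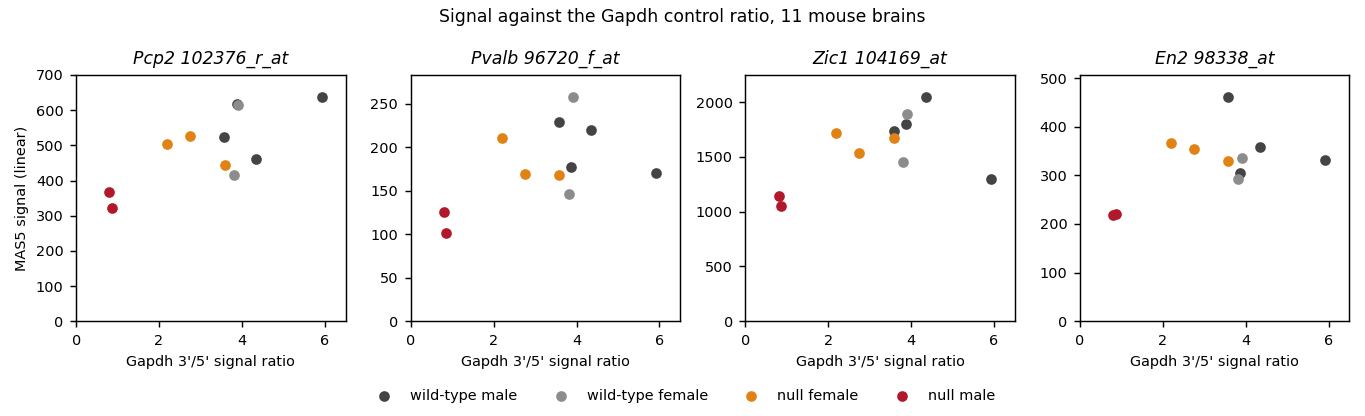
MAS5 signal (linear axis from 0) of the 4 probe sets that passed in males, against the Gapdh 3′/5′ signal ratio, 1 point per brain coloured by sex and genotype. The 2 male null brains lie alone at ratios of 0.859 and 0.798 with the lowest signals, and the other 9 brains lie between 2.19 and 5.92.

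Female and male brains were compared with genotype as a covariate. No member passed, at an unadjusted p under 0.05 or adjusted, where 12.4% and 0% of all tested probe sets did. The lowest limma adjusted p was 0.415, for Pcp2 162452_at at 0.37 (SE 0.18, female minus male). Of the 13, 9 were higher in females, against 47.9% of all tested, and 5 were without the null males. En2 moved from 0.21 to -0.20 and Zic1 from 0.26 to -0.03 when these 2 brains were left out. The lowest value was that of Zic2 98843_at at -0.32 (SE 0.30), and its wild-type females, at 32.4 and 21.2, were below every wild-type male, at 42.5 to 73.

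Variation between brains was modest for most members. The coefficient of variation over the 6 wild-type brains had a median of 17.3% over the 13 probe sets, against 19.5% over all tested. Calb1 was lowest at 5.80% and Zic2 98843_at highest at 39.9%. Over the 9 brains that are not male null the medians were 15.6% and 18.6%.

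Whether the genes vary together between brains was asked over the same 9, with each gene at its brightest probe set. Of 45 pairs, 23 correlated positively, the median Pearson r of log2 signal was 0.0035 and the range -0.79 to 0.65. Of these, 1 pair had an unadjusted exact permutation p under 0.05, and none passed Benjamini-Hochberg adjustment (lowest adjusted p 0.820, exact permutation over 9 brains). That pair, Calb1 with Cbln1, gave r = -0.79 (exact permutation p = 0.0228) and rho = -0.53 (exact permutation p = 0.148), and r was 0.22 without the 2 brains farthest in Calb1, so the relation rests on those. Among the 6 B4 brains its r was -0.76. Pvalb with Zic1 gave r = 0.65 (exact permutation p = 0.0568) and rho = 0.75 (exact permutation p = 0.0255), and Pvalb with Neurod1 gave r = -0.51 (exact permutation p = 0.170) and rho = -0.70 (exact permutation p = 0.0433). The adjusted p of rho was 0.869 for both pairs (exact permutation, Benjamini-Hochberg over 45). Even probe sets of the same gene followed each other loosely, with r = 0.63 for Pvalb (exact permutation p = 0.0589), 0.14 for Zic2 (exact permutation p = 0.701) and -0.05 for Pcp2 (exact permutation p = 0.894). All tests were two-sided, and the smallest p that permutations of 9 brains can give is 5.5e-06.

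The genes most like each member over these 9 brains were picked from 6754 named probe sets by Pearson r, as a description with no test. Pcp2 was nearest to Ubxn8 (r = 0.93), Nap1l2 and Il17ra, Car8 to Gnb5 (0.87), Map2 and Cacnb2, and Calb1 to Krtap13 (0.96), Acvr2b and Foxk2. Pvalb was nearest to Rps28 (0.96), Rps18 and Ubap2l, Zic1 to Lst1 (0.95), Fkbp1b and Lsm7, and Zic2 to Fn1 (0.90), Cytip and Zcchc7. En2 was nearest to Srsf11 (0.89), Zranb2 and Pja1, and Neurod1 to Mfsd14a (0.95), Tyro3 and Isoc1. Cbln1 was nearest to Cdr2l (0.91), Tgfa and Lgmn, and Gdf10 to Insl3 (0.94), Dnal4 and Tbcb. No member was eligible, and the points share arrays and scaling.

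Other genes found in the same cells were read from lists that leave the members out. Like the members, these genes were not chosen as exclusive to the cerebellum. In the genotype comparison none of them passed. Of 13 tested Purkinje cell genes, Rora, an orphan nuclear receptor, gave 1.18, Atp2b2, a calcium pump, 0.96, Cacna1g -0.31 and Cacna1a -0.46 (both calcium channels). Of 11 granule cell genes, Syt1, a synaptic vesicle calcium sensor, gave 1.82, Gabrd 0.64, Bdnf -0.49 and Grin2c -0.40. Of 6 Bergmann glia and interneuron genes, Gria1 gave 0.93, Sparc 0.74, Hopx -0.75 and Fabp7 -0.59. Of 5 hindbrain patterning genes, Unc5c gave -0.83, En1 -0.52, Wnt1 0.19 and Ptch1 0.06. Of 9 relatives of the members, Car4 gave 0.79, Car12 0.65, En1 -0.52 and Neurod6 -0.40.

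In males, genes of these lists passed in both directions, where 17.8% of all tested probe sets were called higher and 14.8% lower. Of the Purkinje cell genes 4 rose, Rora (2.01), Atp2b2 (1.78), Ppp1r17 (1.26) and Lhx1 (0.83), and Cacna1g fell (-0.80), with a list median of 0.25. Of the granule cell genes Syt1 (2.74), Gabrd (1.05) and Calb2 (1.05) rose and Bdnf fell (-1.09), with a median of -0.06. Sparc (1.37) and Gria1 (1.20) rose and Hopx (-1.63) and Fabp7 (-0.90) fell in the Bergmann glia and interneuron list. In the hindbrain list Unc5c (-1.50) and En1 (-0.81), the paralogue of En2, fell and none rose, and among relatives of the members Car4 (1.16) and Calb2 rose and En1 fell. In females none of these lists had a gene past the threshold. Over all tested probe sets 15.9% passed for the interaction. The interaction passed for Atp2b2 (-1.72), Ppp1r17 (-1.34), Cacna1g (1.02), Syt1 (-1.96), Calb2 (-1.09), Bdnf (1.27), Sparc (-1.35), Hopx (1.85) and Unc5c (1.42).

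Summed list signals, members included, are given by sex. They were 10857 to 11290 in null males against 10533 to 10879 in wild-type males for the 19 Purkinje cell genes on the array, 6792 to 7703 against 6207 to 7522 for the 19 granule cell genes, and 990 to 1055 against 1378 to 1471 for the 20 hindbrain patterning genes. Of these 20, only 6 passed the filter on low signal, and the member En2 was among them. Lhx9 and Fgf8 were at the floor in all null males and all wild-type females. In females they were 10995 to 11480 in null against 10321 to 10942 in wild-type brains for the Purkinje cell list, 6718 to 7220 against 7319 to 7387 for the granule cell list, and 1333 to 1463 against 1315 to 1377 for the hindbrain list. The Purkinje cell sum of each null female was thus above all wild-type brains, and null males overlapped them. These sums were not tested. Lists of other cell types and regions were read in males too, where 17.8% of all tested probe sets were called higher and 14.8% lower. The choroid plexus list summed to 1481 to 1550 in null against 2277 to 2962 in wild-type males, with 3 of 4 tested genes lower. The astrocyte list summed to 2124 to 2202 against 1253 to 1735, with 2 of 6 higher. The pan-neuronal list summed to 12340 to 12898 against 10216 to 11942, with 6 of 10 higher and 1 lower. In females the choroid plexus list summed to 2439.5 to 2732.5 in null against 1972 to 2408 in wild-type brains, the astrocyte list to 1472 to 1534 against 1322 to 1635, and the pan-neuronal list to 10703 to 11901 against 10576 to 11057. Again in males, 4 of 9 were higher and 2 lower in the cortex and hippocampus list, and 1 of 4 was higher in the striatum list. For oligodendrocytes 2 of 7 were higher and 1 lower, in the pituitary list 1 of 4 was lower, and in the blood list 0 of 3 passed. The part of these cell types in the fall of the members was not tested.

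**Figure D4:**
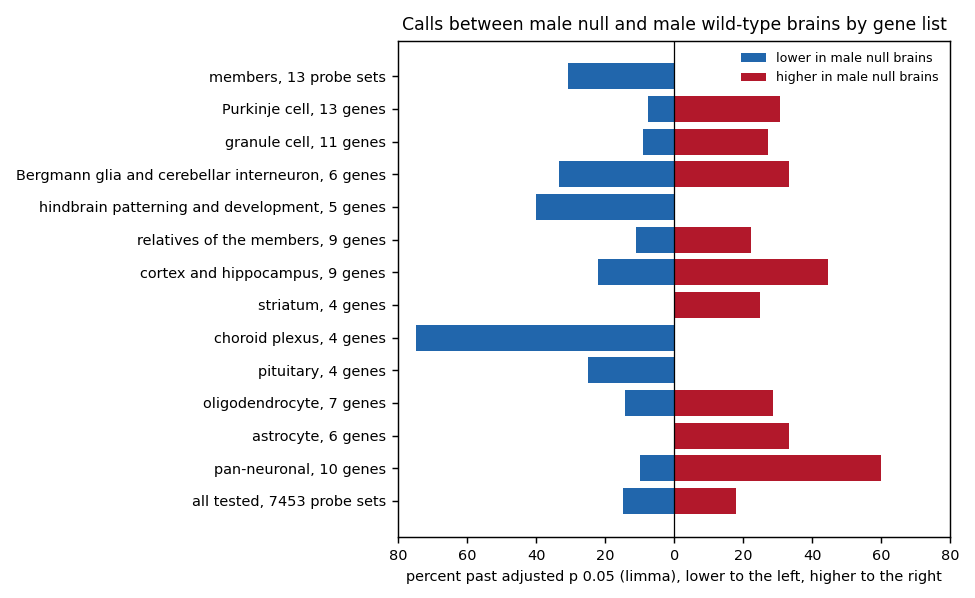
Share of tested probe sets or genes past an adjusted p of 0.05 in males, lower (left) and higher (right) in null brains, for the 13 member probe sets, each gene list without the members, and all 7453 tested probe sets. The members' bar points only to lower, the cerebellar lists point both ways except hindbrain patterning, and all tested probe sets stand at 14.8% lower and 17.8% higher.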

How the data were processed

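Per the submitters' processing notes, the deposited intensity values were made by the authors with MAS5, which gives 1 linear signal per probe set and array. Its settings were not stated there. The trimmed mean was 150.1 on every array, and the number of arrays limits precision. Signals under the 10th percentile (3.1) were raised to it, log2 was taken, and 66 control probe sets were left out. Of the other probe sets, the 40% with the lowest mean log2 signal (under a signal of 25.8) were not tested. limma 3.58.1 in R 4.3.3 (lmFit, eBayes with trend, Benjamini-Hochberg over 7453 probe sets, threshold 0.05) gave all differences and standard errors. Fold changes are on the log2 scale after the floor, which understates those of low signals. Tested on simulated data of 7453 probe sets, the genotype fit called 77% of probe sets changed 2-fold and 97% of those changed 4-fold, and 9 of its 183 calls were false. The interaction fit called 28% and 73%, and 5 of its 106 calls were false. No simulated array stood apart. The simulated spread was that within the 4 groups of sex and genotype, with no interaction between them. The shares for the genotype fit may therefore overstate what it can find in these arrays. Mice were grouped by labels and numbered in accession order, so no number pairs them. P-values measure the spread between mice, 1 array each. The members and lists were chosen with earlier results of these data known. By rule, all member probe sets are named, as are called list genes (for the cerebellar lists; other lists are given as counts), otherwise the 2 highest and 2 lowest, and 3 genes most like each member. Alternatives were quantile normalization, median centring, another floor, no filter, covariates, subsets of mice and leaving out each mouse.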

Additional observations from a re-analysis of the deposited data

Results flagged for a closer look

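Zic2 98844_at had a signal of 19.8 in wild-type 3, a female, which lay below the other 5 wild-type brains at 40.1 to 61. Its gap to the next brain was 0.627 of the range, barely past the critical value of 0.625 in Dixon's test. The signal was also under 25.8, the mean under which probe sets were not tested. On Zic2 98843_at the lowest wild-type brain was wild-type 5 (21.2), and wild-type 3 gave 32.4. The 19.8 was the only value flagged among 26 groups of a probe set and a genotype examined, where chance alone would mark about 1 in 20.

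En2 had a genotype difference that differed between the sexes by 0.87 on the log2 scale in the test of the interaction (SE 0.24, limma adjusted p = 0.0277). Its null females lay at 329.5 to 366.8 and its null males at 219.5 and 219.8.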

How the results depend on the processing

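No member was called for genotype, sex or in females under any alternative that kept all mice, nor for genotype without the male null mice. Leaving out each mouse in turn gave 0 to 2 called member probe sets for genotype, 0 for sex, 0 in females, 1 to 5 in males and 0 to 3 for the interaction; 2 for genotype came without wild-type 5. Among alternatives that kept all mice, 8 passed in males after median centring, a count moved by over 1.5 times, where 2771 of all 7453 tested did. The interaction counts that moved as far were 2 after quantile normalization (1349 of all tested) and 2 after median centring (1305). Median centring moved the genotype median of all tested probe sets from 0.03 to -0.15 and that in males from 0.05 to -0.23, so differences under it are read against that shift. Of the interaction calls over all tested probe sets, 45.5% were higher as deposited, 53.7% after quantile normalization and 68.3% after median centring.

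Signs that turned were all of values that had not been called. For genotype, with the Gapdh ratio as a covariate, Pcp2 102376_r_at became 0.028, Car8 0.077, Pvalb 96719_i_at 0.19, Zic2 98843_at 0.74 and En2 0.16. Without the male null mice, Car8 became 0.20, Pvalb 96719_i_at 0.16, Zic2 98843_at 0.59 and En2 0.16, and among B4 mice without them Car8 became 0.012, Zic2 98843_at 0.28, En2 0.063, Cbln1 0.056 and Gdf10 -0.061. Car8 was 0.0051 with no covariate for sex and 0.13 with age. Median centring gave Calb1 -0.15, Zic2 98844_at -0.028 and Gdf10 -0.058, and quantile normalization gave Pvalb 96719_i_at 0.083, Zic2 98844_at -0.044 and Gdf10 -0.038. For sex, without the male null mice, Pcp2 102376_r_at became -0.13, Pvalb 96720_f_at -0.025, Zic1 -0.034 and En2 -0.20, and median centring gave Calb1 0.17 and Pvalb 96719_i_at 0.11. For the interaction, B4 mice gave Neurod1 -0.18 and Cbln1 0.19, median centring gave Cbln1 0.20 and Gdf10 0.20, and quantile normalization gave Gdf10 0.21. In males Gdf10 was -0.13 after quantile normalization and -0.15 after median centring, and in females B4 mice gave Pvalb 96719_i_at -0.13, Cbln1 0.056 and Gdf10 -0.061.

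Leaving out each mouse in turn, ranges that crossed 0 were, for genotype, -0.20 to 0.028 for Car8, -0.020 to 0.11 for Calb1, -0.18 to 0.059 for Pvalb 96719_i_at, -0.19 to 0.41 for Zic2 98844_at, -0.38 to 0.17 for Zic2 98843_at and -0.011 to 0.22 for Gdf10. For sex they were -0.078 to 0.044 for Calb1, -0.15 to 0.090 for Pvalb 96719_i_at and -0.43 to 0.18 for Zic2 98844_at. For the interaction they were -0.29 to 0.25 for Cbln1, -0.21 to 0.25 for Gdf10 and -0.27 to 0.47 for Neurod1. In males they were -0.14 to 0.33 for Gdf10 and -0.64 to 0.067 for Zic2 98844_at. In females they were -0.33 to 0.24 for Pcp2 102376_r_at, -0.19 to 0.062 for Pcp2 162452_at, -0.13 to 0.46 for Pvalb 96719_i_at, -0.51 to 0.31 for Pvalb 96720_f_at, -0.21 to 0.18 for Zic1, -0.015 to 1.29 for Zic2 98844_at, -0.49 to 0.056 for Cbln1 and -0.061 to 0.29 for Gdf10. The cause of these turns was not tested, and 2 to 4 mice per group of sex and genotype limit all of them. Between members, 0 pairs passed after quantile normalization (lowest adjusted exact permutation p 0.869) or median centring (0.757). No paired analysis was possible because the labels give no replicate numbers shared between the groups.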
